A study of Arabidopsis thaliana with 42 samples.

Results

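The second internode of the flowering stem was set against the shoot apex harvested with its young leaves, 2 green organs of Col-0 Arabidopsis thaliana. The comparison used the 3 stem arrays and the 3 arrays of apex with young leaves, 6 of the 42 arrays in the series. The series measured total RNA of shoots and stems on single-colour Affymetrix arrays with 22810 probe sets, in 14 groups of 3. The 7 Col-0 groups were the second internode, the apex with young leaves, the first node, the hypocotyl and the vegetative, transition and inflorescence apices. The other 7 groups, inflorescence apices of floral mutants, were not used in the comparison. Plants of both groups were Col-0, grown on soil in continuous light. No age was given in the labels. The stem came from plants that had bolted and the apex with young leaves from vegetative plants, and the effects of organ and of developmental stage cannot be told apart.

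A green stem carries chloroplasts in its outer cortex and also has to bear the shoot, so fibres and xylem deposit thick secondary walls of cellulose, xylan and lignin. Young leaves build chloroplasts while their cells still divide: chlorophyll is synthesised, plastid ribosomes and RNA polymerase are made, and imported proteins are folded by chaperonins. The subunits of the photosynthetic complexes are encoded partly in the nucleus and partly in the plastid genome.

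Median signals of the 6 arrays lay between 36.2 and 40.3. Across the probe sets tested, arrays within a group correlated at 0.990 to 0.992 and arrays of different groups at 0.683 to 0.686; probe sets are not independent replicates. The 3'/5' signal difference of the control transcripts averaged 0.71 ± 0.12 (log2, SD, n = 3) in the stem and 0.59 ± 0.02 in the apex with young leaves. Of 16039 probe sets tested, 13154 (82.0%) passed an adjusted p of 0.05 in limma, 6365 (39.7%) higher in the stem and 6789 (42.3%) lower; after median scaling of each array the balance turned, with 6894 higher and 6200 lower. Changes of at least 2-fold were called for 2710 probe sets higher (16.9%) and 3082 lower (19.2%), which median scaling also turned, to 3039 higher and 2801 lower, and the median change over all probe sets tested was -0.04. The groups of 3 arrays did not overlap for 81.5% of the probe sets tested.

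Changes below are log2 differences, stem minus apex with young leaves, on log2(signal + 8), with ± the standard error of the fit. Signals are given per array or as mean ± SD (n = 3). Each list count below stands beside 39.7% of all probe sets tested called higher and 42.3% called lower. Nothing is read from counts near those shares. Where the lower signal is near or under 8, the added 8 sets the size of the change, which is then not exact. Nothing in the labels ties the 3 samples of each organ to separate plants; the spread behind the p-values is that among these samples and may be technical. The number of arrays limits the precision. In these bulk samples, fewer cells of a type and less RNA per cell cannot be told apart. Signals of different probe sets were not set against each other.

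The labelled organs were checked against marker genes, few of which had a named probe set. These were 1 of 14 for xylem and fibre walls, 2 of 10 for meristem and 2 of 12 for young leaf and trichome. IRX15, the measured marker of xylem and fibre walls, was high on every stem array, while YAB3, a marker of leaf primordia, was high on every array of apex with young leaves. TRY, listed as a leaf and trichome marker, went the other way and was higher in the stem by 1.4 ± 0.12. The meristem marker LAS was lower in the stem by a small amount, -0.48 ± 0.12, and CLV3 lay below the filter on low signals. AMS, an anther marker, and EXPA7 and EXPA18, root hair markers, also lay below that filter. No phloem marker had a named probe set.

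**Figure D1:**
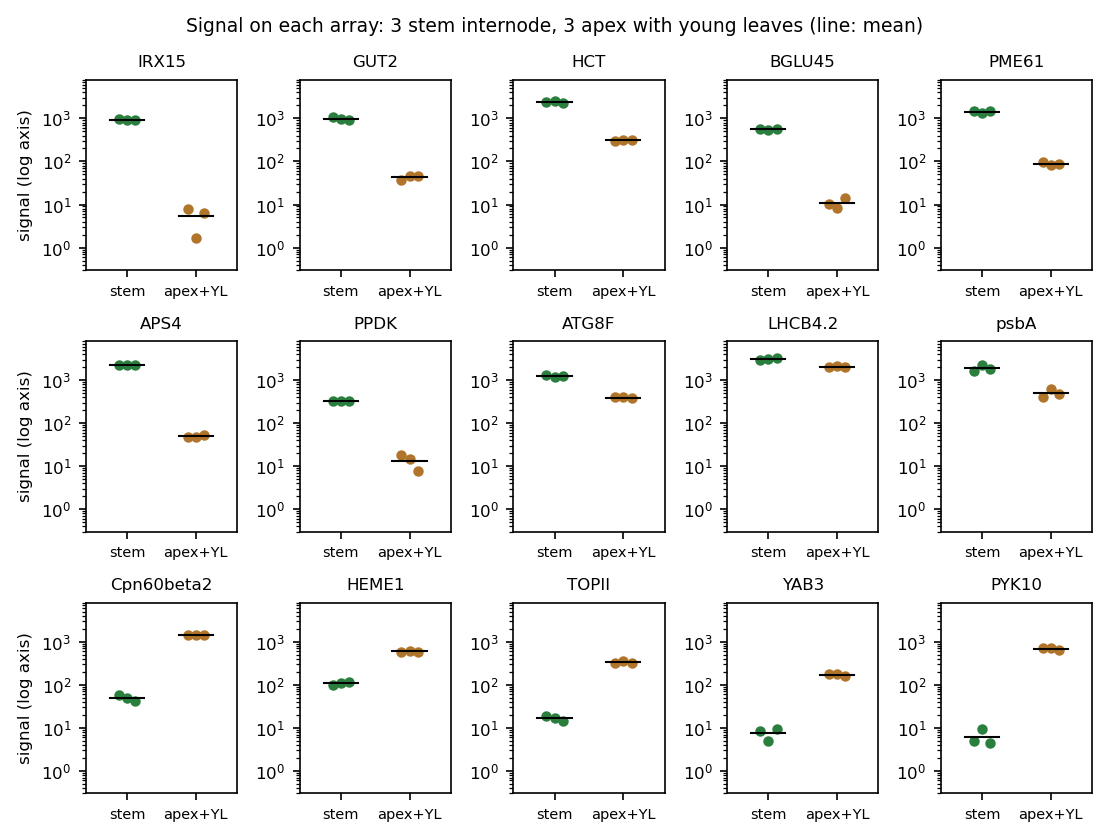
Signal of 15 genes on each of the 6 arrays, on a log axis, with stem internode arrays left and arrays of apex with young leaves (apex+YL) right; the line is the mean of 3. The groups do not overlap for any of the 15 genes, and the upper row, with IRX15 at 922 to 944 in the stem against 1.66 to 7.91 in the apex with young leaves, is high in the stem.

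The leading genes of xylan synthesis and of lignin precursors were higher in the stem. IRX15 (AT3G50220), needed for normal xylan chains, had signals of 944, 922 and 932 in the stem, against 7.91, 1.66 and 6.23 in the apex with young leaves. All stem arrays were high and all arrays of apex with young leaves were near background, and the change was 6.18 ± 0.22 (limma, adjusted p = 1.8e-18). Its homologue IRX15-L (AT5G67210) had 1376, 1326 and 1234 in the stem and 30.1, 20.6 and 24.9 in the apex with young leaves, a change of 5.32 ± 0.15. GUT2 (AT1G27440), the xylan xylosyltransferase IRX10, had 1076, 961 and 917 in the stem and 36.9, 46 and 46.7 in the apex with young leaves (4.28 ± 0.10, limma, adjusted p = 8.8e-22). The related GUT1 was higher by 0.79 ± 0.06. Of 7 xylan genes tested, 5 rose, 1 fell and 1 did not pass, beside 39.7% of all probe sets higher and 42.3% lower. The median change of these genes, the only ones of 47 listed with a named probe set, was 2.1. TBL34, a xylan acetyltransferase, rose by 2.1 ± 0.12, while TBL35, of the same activity, fell by 0.37 ± 0.08.

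Enzymes that make or release lignin precursors rose as well. HCT, the hydroxycinnamoyl transferase at the branch to monolignols, had 2432, 2564 and 2308 in the stem and 301, 321 and 315 in the apex with young leaves (2.93 ± 0.05). BGLU45 (AT1G61810), a glucosidase that acts on monolignol glucosides, had 578, 549 and 560 in the stem and 10.4, 8.39 and 14.3 in the apex with young leaves (4.92 ± 0.12, limma, adjusted p = 1.2e-21). Its immediate chromosomal neighbour BGLU46, with the same kind of activity, rose by 2.2 ± 0.11. GT72B1, a glucosyltransferase that conjugates monolignols, rose by 3.32 ± 0.09. Of 4 tested genes in the lignin and phenylpropanoid list, 3 were called higher and 1, the peroxidase gene AT5G66390, did not pass at -0.03 ± 0.15. Among those 3, CCOAMT had 46.3, 49.0 and 54.6 in the stem and averaged 18.3 or less in every other Col-0 organ. By these values CCOAMT passed the filter on low signals only through the 3 stem arrays. Its direction was thus set by the filter, and its call is no result. In a wider set of phenylpropanoid enzymes, assembled after values had been seen, 8 of 9 tested genes were called higher and 1, UGT72E1, fell by 1.5 ± 0.19. The 8 again include CCOAMT, whose call is no result.

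Most of the measured genes for pectin and growth-related wall enzymes were higher in the stem. PME61, a pectin methylesterase, had 1450, 1310 and 1466 in the stem and 96.6, 81.0 and 88.0 in the apex with young leaves (3.88 ± 0.11). ATPMEPCRD and PMEPCRF, of the same enzyme family, rose by 4.93 ± 0.14 and 3.23 ± 0.09, and the fourth tested member, ATPMEPCRB, fell by 1.4 ± 0.10. Of 19 genes of primary wall growth, 15 rose, 3 fell and 1 did not pass, with a median of 0.69. The expansin EXPA8, which loosens walls, rose by 1.67 ± 0.12, and XTH16, a xyloglucan endotransglucosylase/hydrolase, fell by 3.05 ± 0.07 with signals of 33.7 to 35.7 in the stem and 340 to 351 in the apex with young leaves. GH9B5, a family 9 glycosyl hydrolase, had 461, 484 and 411 in the stem and 25.1, 21.4 and 24.1 in the apex with young leaves (3.87 ± 0.12). SP1L5, of the SPIRAL1-LIKE family of microtubule proteins, rose by 4.74 ± 0.14. Tubulin isoforms split: TUB6 rose by 2.39 ± 0.05 and TUA1 by 1.34 ± 0.10, while TUB7 fell by 1.54 ± 0.06.

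The plant surface was represented by 4 genes. SHN3, an AP2-type regulator of cuticle formation, rose by 2.4 ± 0.19, the thioesterase gene FATB by 1.62 ± 0.09 and the wax ester synthase gene WSD1 by 1.42 ± 0.12. AT4G13840, listed under the synonym CER26 and known for elongating leaf wax chains, had 5.69, 1.4 and 10.1 in the stem and 267, 222 and 232 in the apex with young leaves. Its signals were near background in the stem, and the change was -4.22 ± 0.15.

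**Figure D2:**
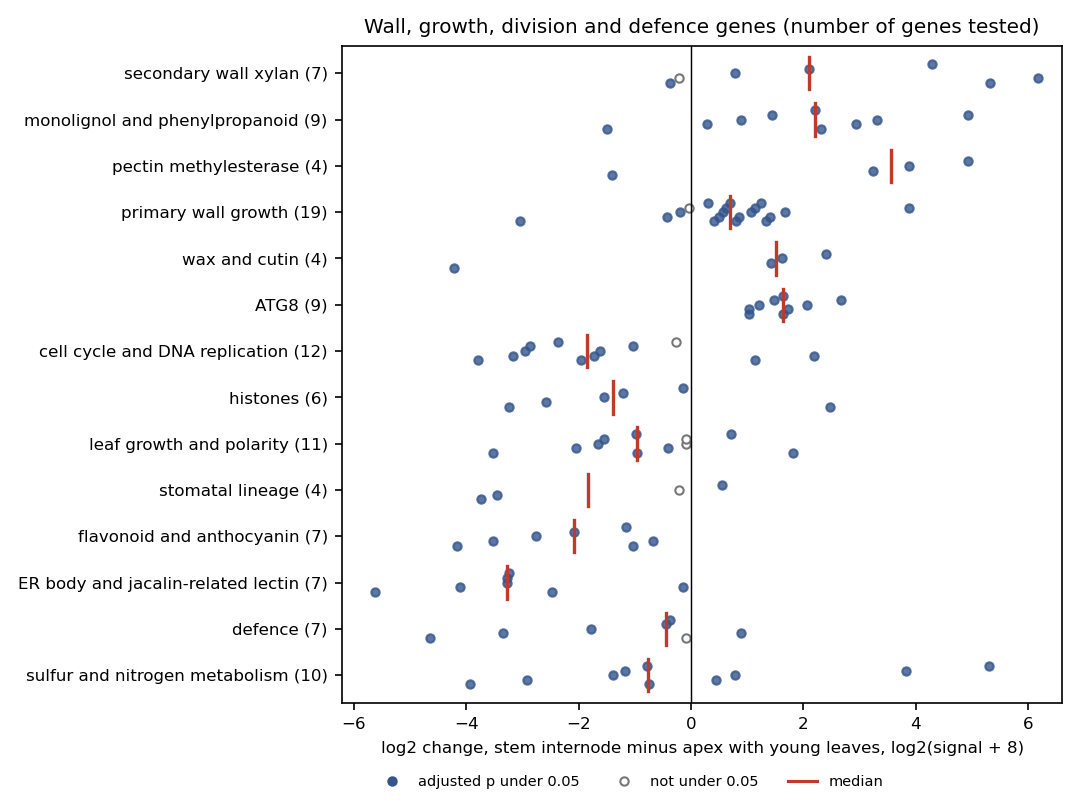
Log2 change of each tested gene (points, horizontal axis, stem internode minus apex with young leaves) by gene group; filled points passed an adjusted p of 0.05, open points did not, red lines are medians. Secondary wall, pectin methylesterase and ATG8 medians lie at 2.1, 3.55 and 1.63; those of cell cycle, flavonoid and ER body genes at -1.84, -2.08 and -3.27.

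List medians of nuclear photosynthesis genes lay between -0.08 and 0.60. Each list had members called in both directions, except the antenna list, whose 3 genes were all called higher. LHCB4.2, an antenna protein of photosystem II, had 2978, 3057 and 3218 in the stem and 1993, 2101 and 1998 in the apex with young leaves (0.60 ± 0.04). LHCB4.3, another isoform of the same antenna protein, rose by 1.47 ± 0.08, with 575, 550 and 670 in the stem and 193, 234 and 206 in the apex with young leaves. LHCB4.1, the remaining isoform, overlapped between groups; it was 0.17 ± 0.06 under the main scaling and -0.06 with an adjusted p of 0.30 after quantile normalization in limma. The photosystem I subunits PSAE-1 and PSAN were higher by 0.28 ± 0.07 and 0.19 ± 0.06, and the photosystem II subunit PSBW by 0.32 ± 0.07. AT4G38100, a thylakoid curvature protein gene (CURT1D) kept in the photosystem I list, fell by 1.44 ± 0.11, with 79.7, 87.7 and 61.3 in the stem and 228, 236 and 192 in the apex with young leaves. In the electron transport list, the NDH subunit gene NdhS rose by 0.91 ± 0.08 and ATPC2, for a gamma subunit of ATP synthase, fell by 0.74 ± 0.12. PSBY, also of photosystem II, had 2139, 2139 and 2296 in the stem and 2137, 2255 and 2127 in the apex with young leaves (0.01 ± 0.05, adjusted p = 0.82 in limma). Among Calvin cycle genes, the Rubisco activase gene RCA rose by 0.31 ± 0.07, though its groups overlapped; PRK, the phosphoribulokinase gene, gave 0.01 ± 0.05, and SBPASE, the sedoheptulose bisphosphatase gene, fell by 0.61 ± 0.07. Over these lists the medians were 0.60 for 3 antenna genes, -0.08 for 4 photosystem II genes, 0.07 for 5 photosystem I genes, 0.02 for 6 electron transport genes and 0.01 for 3 Calvin cycle genes, beside -0.04 for all probe sets. The 3 antenna genes were the LHCB4 isoforms, the only ones of 21 listed antenna genes with a named probe set.

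The measured genes that make chlorophyll were lower in the stem. Of 39 listed genes of chlorophyll and carotenoid synthesis, 10 had a named probe set. Of 10 tested genes of chlorophyll and carotenoid synthesis, 9 fell and 1 rose, with a median of -1.23. HEME1, a uroporphyrinogen decarboxylase gene, had 100, 109 and 114 in the stem and 592, 617 and 579 in the apex with young leaves (-2.39 ± 0.07, limma, adjusted p = 2.5e-20). CHLI2, a subunit gene of magnesium chelatase, fell by 2.57 ± 0.08 and HEME2, the second uroporphyrinogen decarboxylase gene, by 2.16 ± 0.06. GSA1, for glutamate-1-semialdehyde aminotransferase at the start of the pathway, had 197, 230 and 230 in the stem and 761, 611 and 728 in the apex with young leaves (-1.64 ± 0.07). CHLM and PORB, for later steps, fell by 0.78 ± 0.05 and 0.89 ± 0.09, and HEMA2, for glutamyl-tRNA reductase just before GSA1, by 0.35 ± 0.13. LYC, a lycopene cyclase gene of carotenoid synthesis, rose by 0.78 ± 0.08.

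The measured nuclear genes of plastid protein folding and the plastid Clp protease were lower in the stem. Of 68 genes in the plastid ribosome and plastid gene expression list, only these 4 had a named probe set. The ribosomal and transcription genes of that list were not measured. Cpn60beta2 (AT3G13470), a subunit gene of the plastid chaperonin, had 57.1, 48.2 and 42.0 in the stem and 1410, 1453 and 1455 in the apex with young leaves. The groups lay far apart, with a change of -4.67 ± 0.07 (limma, adjusted p = 1.2e-25). Its relatives Cpn60beta3 and Cpn60beta4 fell by 1.27 ± 0.06 and 1.12 ± 0.08, and CLPP4, a subunit gene of the plastid Clp protease, by 1.6 ± 0.05. In a set of 26 tested genes of plastid gene expression, protein handling and division, put together after values had been seen, 25 fell and 1 did not pass, with a median of -1.52. A set chosen in this way cannot stand for such genes in general. RH39, a helicase for plastid ribosomal RNA, had 25.2, 27.2 and 22.4 in the stem and 185, 196 and 218 in the apex with young leaves (-2.65 ± 0.08). RAP, for maturation of plastid 16S ribosomal RNA, fell by 2.4 ± 0.09, the peptide deformylase gene PDF1B by 2.12 ± 0.07 and FTSZ2-1, for the plastid division ring, by 1.58 ± 0.05. The gene that did not pass was LPA66, an editing factor for psbF, at -0.04 ± 0.10.

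Of 18 genes of thylakoid assembly, transport and protection, a set likewise chosen after values had been seen, 15 fell, 2 rose and 1 did not pass, with a median of -0.54. PAM68, an assembly factor of photosystem II, had 67.0, 58.5 and 69.5 in the stem and 197, 218 and 199 in the apex with young leaves (-1.54 ± 0.07). CCB3, for cytochrome b6 maturation, fell by 1.41 ± 0.16. LIL3:1, a light-harvesting-like protein tied to chlorophyll synthesis, fell by 1.91 ± 0.05, and its paralogue LIL3:2 gave 0.02 ± 0.05 (adjusted p = 0.77 in limma). PGRL1B, of cyclic electron flow, and PIFI, of chloroplast NDH activity, rose by 0.86 ± 0.10 and 1.07 ± 0.06.

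**Figure D3:**
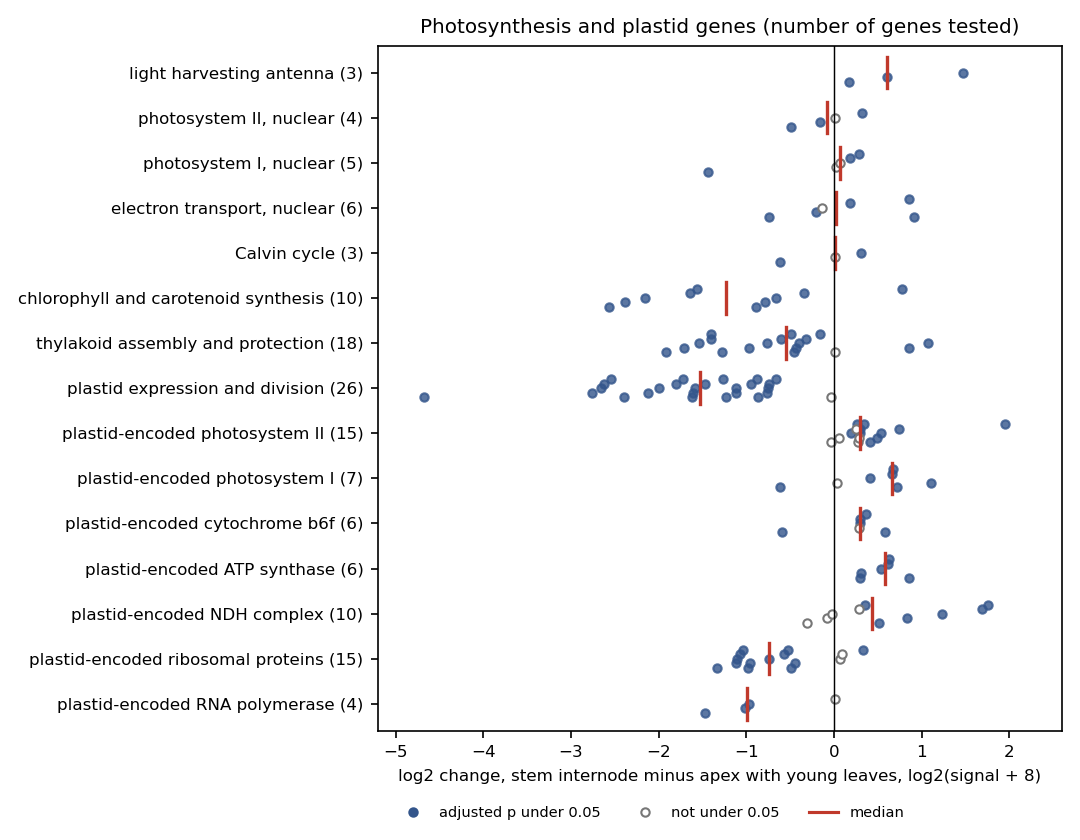
Log2 change of each tested gene (points, horizontal axis, stem internode minus apex with young leaves) for nuclear groups above and plastid-encoded complexes below; filled points passed an adjusted p of 0.05, red lines are medians. Medians of the photosynthetic complexes lie near or right of 0 (atpB and LHCB4.1 turn slightly below 0 after quantile normalization); chlorophyll synthesis (-1.23), plastid expression (-1.52), plastid-encoded ribosomal proteins (-0.74) and RNA polymerase (-0.99) lie left of 0.

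Among 69 plastid-encoded genes tested, 37 rose, 18 fell and 14 did not pass, beside 39.7% of all probe sets higher and 42.3% lower. All 6 ATP synthase genes rose (median 0.58), although atpB, at 0.30 ± 0.06, was -0.01 after quantile normalization. Of 15 photosystem II genes, 10 rose and none fell (median 0.29), with 5 that did not pass. psbA, for the D1 protein that is replaced during light damage, had 1637, 2280 and 1829 in the stem and 398, 613 and 472 in the apex with young leaves (1.95 ± 0.13). Of 7 genes of photosystem I and its assembly, 5 rose, led by psaC at 1.1 ± 0.13, and 1, the assembly factor ycf3, fell by 0.62 ± 0.16. Of 6 cytochrome b6f genes, 4 rose, petD did not pass at 0.29 ± 0.14, and petG fell by 0.59 ± 0.12 (median 0.29). Of 10 NDH genes, 6 rose and 4 did not pass; ndhJ had 559, 599 and 498 in the stem and 141, 160 and 173 in the apex with young leaves (1.75 ± 0.10).

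Of 15 plastid-encoded ribosomal protein genes, 12 fell, 1 rose and 2 did not pass, with a median of -0.74. rpl22 had 783, 808 and 686 in the stem and 2013, 1874 and 1890 in the apex with young leaves (-1.34 ± 0.07). The gene that rose, rps14, changed by 0.33 ± 0.14; the call was lost without the filter, with all 42 arrays, without the trend in eBayes, and without stem replicate 1 or 2 or replicate 2 of the apex with young leaves, where the change was 0.15. Of 4 RNA polymerase genes, rpoB, rpoC1 and rpoC2 fell by 1.47 ± 0.11, 0.96 ± 0.10 and 1.02 ± 0.15, and rpoA gave 0.01 ± 0.11. Plastid genes are transcribed in groups, so neighbouring genes are not independent, and the labels do not say how RNA without a poly-A tail was labelled.

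Most of the measured cell division genes were lower in the stem. Of 113 listed genes of the cell cycle and DNA replication, 12 had a named probe set. TOPII (AT3G23890), DNA topoisomerase II, had 18.9, 16.8 and 14.5 in the stem and 324, 350 and 322 in the apex with young leaves (-3.79 ± 0.07, limma, adjusted p = 9.3e-24). AUR2, an Aurora kinase of mitosis, fell by 3.2 ± 0.08, PRL, the replication helicase subunit MCM7, by 2.95 ± 0.07, and BUB3.1, of the spindle checkpoint, by 2.86 ± 0.08. Of 12 genes of the cell cycle and DNA replication, 9 fell, 2 rose and 1 did not pass, with a median of -1.84. The 2 that rose were SIM, an inhibitor of cyclin-dependent kinases that acts in endoreduplicating cells, at 2.19 ± 0.10, and KEU, a Sec1 protein of cytokinesis and secretion, at 1.13 ± 0.06. SIM had 339, 413 and 403 in the stem and 78.0, 78.6 and 76.6 in the apex with young leaves.

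Of 6 histone genes tested, 5 fell and 1 rose. HTB2, a core histone H2B gene, had 32.9, 35.9 and 35.2 in the stem and 395, 377 and 405 in the apex with young leaves (-3.23 ± 0.07). HTB1, HTB4 and HTB11, of the same family, fell by 2.59 ± 0.08, 1.55 ± 0.09 and 1.22 ± 0.06. HON4, a linker-histone-like gene, fell by 0.14 ± 0.06 with overlapping groups. HIS1-3, a linker histone known from drought responses, rose by 2.47 ± 0.20, with 79.2, 83.1 and 87.4 in the stem and 13.4, 5.88 and 6.98 in the apex with young leaves. This gene passed the filter on low signals only through the 3 stem arrays. Its direction was thus set by the filter, and its call is no result.

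Several regulators of leaf form and stomata were lower in the stem. YAB3, for the abaxial side of the leaf, had 8.29, 5.0 and 9.61 in the stem and 179, 176 and 158 in the apex with young leaves (-3.53 ± 0.12). NGA1 and NGA2, of leaf margin growth, fell by 2.04 ± 0.21 and 1.66 ± 0.17. Of 11 genes of leaf growth and polarity, 7 fell and 2 rose, beside 42.3% of all probe sets lower and 39.7% higher. The 2 that rose were PHV, for the adaxial side and vascular tissue, at 0.72 ± 0.08, and ARL, which promotes cell expansion, at 1.81 ± 0.12. SPCH, which starts the stomatal lineage, had 0.87, 1.61 and 0.80 in the stem and 95.9, 84.9 and 94.4 in the apex with young leaves (-3.45 ± 0.14). STOMAGEN, a mesophyll peptide that promotes stomata, had 7.6, 9.39 and 6.49 in the stem and 208, 199 and 198 in the apex with young leaves (-3.73 ± 0.15). FMA, the guard cell regulator FAMA, gave -0.22 ± 0.16 and did not pass, and AGL16, a MADS-box gene of stomatal development, was the 1 of 4 stomatal genes that rose. SPCH and TRY are adjacent genes on chromosome 5, and TRY, which inhibits trichome fate, rose while SPCH fell.

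The measured anthocyanin and flavonoid genes fell together, 7 of 7 tested, with a median of -2.08. Of 36 listed genes, 9 had a named probe set. DFR, the reductase that commits flavonoids to anthocyanin, had 11.1, 14.5 and 10.5 in the stem and 316, 388 and 350 in the apex with young leaves (-4.17 ± 0.11). UF3GT, a glycosyltransferase of anthocyanins, and CHIL, the chalcone isomerase-like protein, fell by 3.52 ± 0.19 and 2.75 ± 0.11. The genes with the smallest changes were the flavonol glycosyltransferases UGT78D1 and UGT78D2, at -1.04 ± 0.08 and -0.67 ± 0.08.

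Genes of the ER body, a store of glucosidases in seedlings and leaves, were also lower in the stem. PYK10 (AT3G09260), its main glucosidase, had 5.06, 9.19 and 4.34 in the stem and 715, 705 and 643 in the apex with young leaves (-5.63 ± 0.10, limma, adjusted p = 9.4e-24). NAI2, which forms the bodies, and NAI1, their transcription factor, fell by 4.11 ± 0.07 and 2.47 ± 0.16. The lectin genes JAL33 and JAL34, adjacent on chromosome 3, fell by 3.28 ± 0.16 and 3.27 ± 0.10. Of 10 genes in the glucosinolate list, which holds PYK10, NAI1, NAI2 and JAL34, 9 fell; the 1 that rose was the glucosinolate transporter gene GTR2, at 0.99 ± 0.07. LCR69, the defensin PDF2.2, had 93.9, 76.9 and 87.1 in the stem and 2358, 2413 and 2243 in the apex with young leaves (-4.65 ± 0.06), and the thionin gene THI2.2 fell by 3.35 ± 0.12. The defence list held 7 tested genes, of which 5 fell, 1 did not pass and 1, the defensin gene PDF2.1, rose by 0.88 ± 0.21, with a median of -0.45. Over all probe sets tested, 42.3% were called lower and 39.7% higher.

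Sulfur and carbon metabolism showed opposite isoforms. APS4 (AT5G43780), an ATP sulfurylase of sulfate assimilation, had 2262, 2287 and 2245 in the stem and 46.5, 48.4 and 53.2 in the apex with young leaves (5.31 ± 0.07, limma, adjusted p = 9.9e-27). APS3, another ATP sulfurylase, fell by 1.18 ± 0.10, and sulfite reductase, SIR, by 0.75 ± 0.05. The sulfurtransferase gene STR18 rose by 3.83 ± 0.10, while the methionine sulfoxide reductase genes MSRB9 and MSRB6 fell by 3.94 ± 0.11 and 2.91 ± 0.13. PPDK (AT4G15530), pyruvate orthophosphate dikinase, had 330, 329 and 319 in the stem and 18.3, 14.3 and 7.75 in the apex with young leaves (3.99 ± 0.16). In starch synthesis, the ADP-glucose pyrophosphorylase subunit APL3 rose by 2.31 ± 0.10 and APL4 fell by 1.36 ± 0.17. SWEET17, a vacuolar fructose carrier, and SWEET11, which exports sucrose for phloem loading, rose by 1.23 ± 0.07 and 0.99 ± 0.13, and SWEET16, also vacuolar, fell by 1.04 ± 0.14.

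All 9 measured ATG8 genes, whose proteins coat autophagosomes, were higher in the stem, by 1.03 to 2.67. ATG8F had 1284, 1179 and 1269 in the stem and 400, 395 and 383 in the apex with young leaves (1.64 ± 0.06), and ATG8H, the largest change, 238, 188 and 202 in the stem and 33.5, 16.6 and 30.0 in the apex with young leaves. ATG3, which attaches ATG8 to lipid, rose by 0.80 ± 0.07. GAMMA-VPE, a vacuolar processing protease, had 3315, 3626 and 3565 in the stem and 145, 142 and 147 in the apex with young leaves (4.52 ± 0.05).

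GH3.17 and GH3.3, which conjugate auxin to amino acids, fell by 3.41 ± 0.10 and 3.02 ± 0.07, and BRL1, a brassinosteroid receptor of vascular cells, rose by 2.27 ± 0.16. The MADS-box gene AGL42 had 76.7, 74.4 and 82.0 in the stem and 4.03, 3.62 and 6.32 in the apex with young leaves (2.76 ± 0.12), while SMZ and SNZ, repressors of flowering, fell by 1.55 ± 0.17 and 1.58 ± 0.21. The dehydrins LTI30 and COR47 rose by 4.07 ± 0.15 and 1.96 ± 0.07. The stress regulator genes ORA47 and STZ fell by 3.11 ± 0.12 and 1.38 ± 0.10, and COR15A and COR15B, for chloroplast proteins of cold acclimation, by 1.06 ± 0.14 and 1.37 ± 0.13. Of 9 stress genes, 4 rose and 5 fell, beside 39.7% and 42.3% of all probe sets.

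Other genes with a symbol among the 15 highest or lowest changes included FDH, for formate dehydrogenase, at 3.66 ± 0.06, the subtilase gene SBT1.3 at -5.10 ± 0.07, EXO at -3.98 ± 0.09, 3xHMG-box2, for a chromatin protein, at -3.72 ± 0.08, DI21 at -3.65 ± 0.09 and ARPN at -3.62 ± 0.09. Among called genes named only by locus, probe sets with a shared-target suffix or with overlapping groups were left out. The largest changes among the rest were an increase of 7.75 ± 0.19 for AT1G22480 and a decrease for AT4G29030, at -7.28 ± 0.10. Over all probe sets tested, changes ran from -7.48 to 8.87. AT1G22480 had 3044, 3158 and 3305 in the stem and 2.25, 7.96 and 11.6 in the apex with young leaves. AT4G29030 had 2.6, 2.72 and 6.44 in the stem and 1818, 1891 and 1786 in the apex with young leaves.

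The first node and the hypocotyl, also stem organs, were set against the same 3 arrays of apex with young leaves, so their changes share those arrays and are given side by side only. The median of the xylan list was 2.1 in the second internode, 1.8 in the node and 1.49 in the hypocotyl. The median of chlorophyll and carotenoid synthesis was -1.23, -1.25 and -1.30 in the same order. The antenna list, measured only by the 3 LHCB4 isoforms, had medians of 0.60, -0.15 and -0.98, and the flavonoid list -2.08, -2.34 and 0.02. PYK10 averaged 6.20 ± 2.62 in the second internode, 5.08 ± 1.83 in the node and 2983 ± 229 in the hypocotyl, against 688 ± 39 in the apex with young leaves. IRX15 averaged 933 ± 11, 409 ± 22 and 29.4 ± 2.4 in those 3 stem organs, against 5.27 ± 3.23 in the apex with young leaves. PPDK averaged 326 ± 6, 117 ± 13 and 256 ± 35 in the internode, node and hypocotyl, against 13.5 ± 5.3 in the apex with young leaves. The node arrays carried signal of the bacterial dap control (8.28 ± 0.25, log2), unlike the internode (3.22 ± 0.11), the hypocotyl (3.18 ± 0.06) and the apex with young leaves (3.38 ± 0.07); its part in the node values was not tested.

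**Figure D4:**
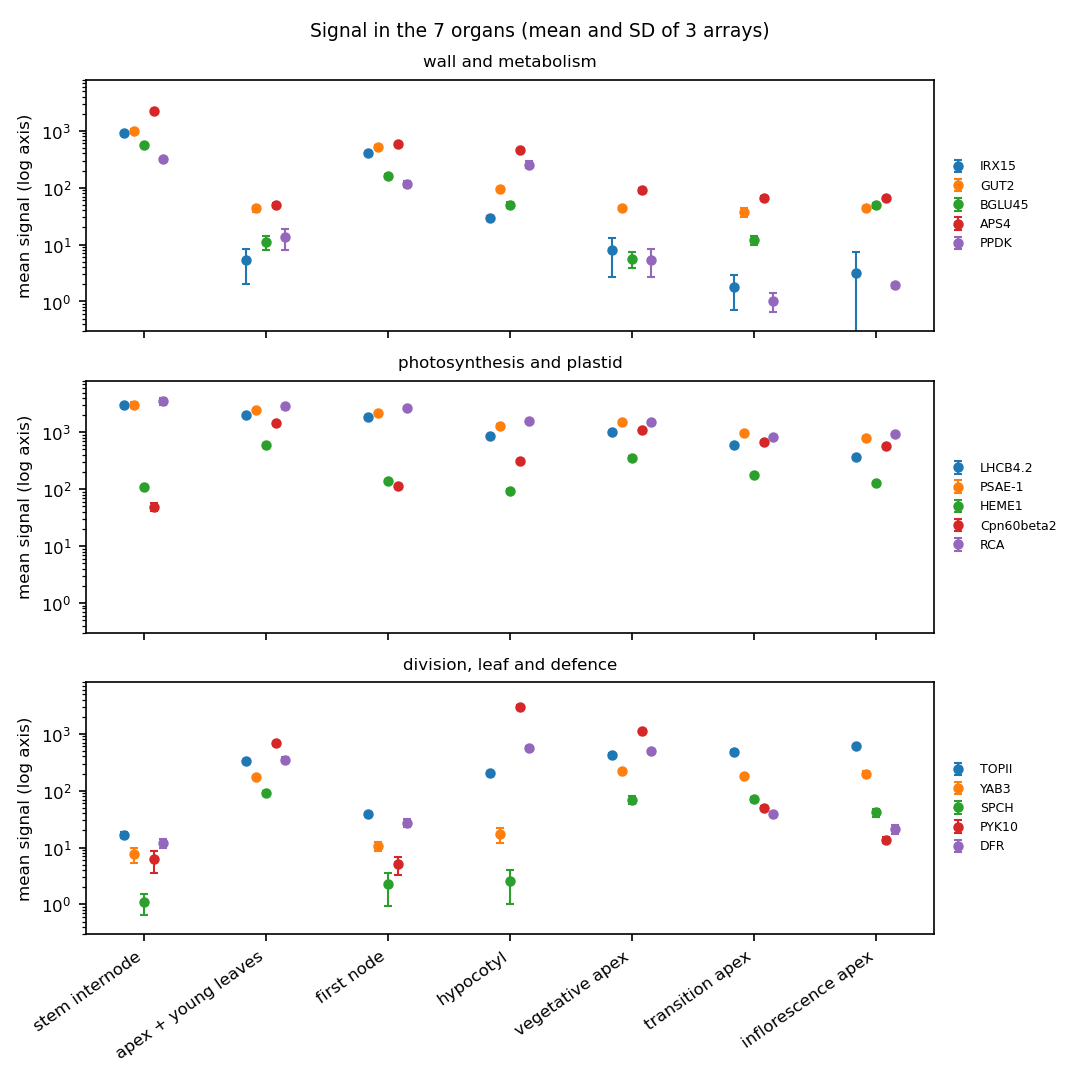
Mean signal with SD (n = 3 arrays, log axis) of 15 genes in the 7 Col-0 organs, with the stem internode first and the apex with young leaves second. IRX15 is high in the internode (933) and node (409), PYK10 in the hypocotyl (2983), and Cpn60beta2 is at 49.1 in the internode against 1439 in the apex with young leaves.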

How the data were processed

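Total RNA was labelled with biotin, per the labels. The deposited values are linear signal intensity per probe set, made with MAS5 per the submitters' processing notes; no version or settings are named in those notes. The mean after trimming 2% at each end was 100 on every array. One linear model of group means covered the 7 Col-0 organs, 21 arrays (limma 3.58.1, R 4.3.3, lmFit, eBayes with trend, 14 residual degrees of freedom) on log2(signal + 8), with the contrast stem minus apex with young leaves. Kept were 16039 probe sets that exceeded, on at least 3 arrays, the 40th percentile of the array; the 64 control probe sets were left out. Alternatives in offset, filter, scaling, arrays fitted, variance model, replicate block and probe-set annotation were run. Tests were two-sided with Benjamini-Hochberg adjustment over all probe sets tested, and an adjusted p under 0.05 made a call.

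The platform annotation gave 1 gene for 13513 probe sets, several for 503 and none for 8730; a symbol other than the locus was given for 1580. Gene names and neighbours come from the RefSeq annotation, and where a gene had several probe sets, the brightest on average stood for it. Lists are described by counts and medians, with no test. Members and lists were chosen with earlier results of these data known. Named were, per list, up to 4 called members of largest change in each direction and the member of highest signal, and, of the called genes with a symbol and no overlap between groups, the 15 that rose most and the 15 that fell most; the text prints part of these 157 genes. The plastid-encoded genes and complexes, gene families, widened sets, locus-named genes and further list members named here were added after their values were seen. Entries matched through a wrong synonym (6) were left out. No 2 arrays were identical. Replicate numbers did not pair the samples: deviations of same-numbered arrays correlated at -0.02, -0.01 and -0.01. On simulated data for this contrast (14390 probe sets), changes of 0.5, 1 and 2 on the log2 scale were called for 94%, 100% and 100% of changed probe sets. Figures were drawn with matplotlib 3.10.9.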

Additional observations from a re-analysis of the deposited data

How the results depend on the processing

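The count of probe sets called was 13154. It was 13112 and 13154 with an offset of 2 and 32, 14138 without the filter, 10612 with a 60th percentile filter, 13032 after quantile normalization, 13094 after per-array median scaling, 12174 with only the 6 arrays and 13071 with all 42 arrays. With a replicate block it was 13142, and leaving out 1 array gave 12726 to 12825. Only the restriction to probe sets of 1 gene without a shared-target suffix, which tests fewer probe sets (8716), moved the counts by over 1.5 times: 7067 called, 3338 higher and 3729 lower, and at least 2-fold 3034, of which 1402 higher and 1632 lower. The count of at least 2-fold was 5792 in the main fit, 6568 with an offset of 2 and 3929 with an offset of 32. With an offset of 32, 31 list medians moved by more than the median standard error of their members and 31 did not. With median scaling, 22 list medians moved that far and 40 did not. Median scaling moved the median of all probe sets by 0.09 and turned the excess of lower calls into 6894 higher and 6200 lower. Of 518 genes in the lists or named, 450 kept call and direction under every alternative that tested them, and the other 68 passed or lost the threshold in at least 1. Among called genes, atpB (-0.01) and LHCB4.1 (-0.06) changed sign after quantile normalization, without a call. The median of the trichome birefringence-like family turned from 0.38 to -0.10 without the filter, and that of the SWEET family from 0.20 to -0.24 with the 60th percentile filter, where other members enter or leave. HIS1-3 was not tested when a stem array was left out, since the filter asks for 3 arrays. A few other genes of the lists also dropped out then, by its values CCOAMT among them. Their direction was likewise set by the filter, and the list counts still hold them. Signals near the offset limit the size of changes in low genes.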

Other observations

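The counts of further gene families, chosen after their values were seen, are given for the second internode against the apex with young leaves, where 39.7% of all probe sets were called higher and 42.3% lower; nothing is read from counts near those shares. Of 8 ESCRT genes, which sort membrane proteins into endosomes, 7 rose and 1, VPS2.2, fell by 2.73 ± 0.07, with 32.2, 39.5 and 35.5 in the stem and 309, 269 and 270 in the apex with young leaves. Of 11 PRA1 genes, small membrane proteins of vesicle traffic, 8 rose and 1 fell. Of 11 ubiquitin-conjugating enzyme genes, 7 rose and 3 fell; UBC30 rose by 1.85 ± 0.07 and UBC20, tied to mitotic protein turnover, fell by 2.62 ± 0.07. Of 8 NET actin-binding genes, 4 rose and 4 fell, with NET1B at 1.88 ± 0.14 and NET4B at -2.93 ± 0.09. Of 12 beta-glucosidase genes, 6 rose and 5 fell, with BGLU45 and PYK10 as the extremes, and of 12 TRM genes, whose proteins bind microtubules, 3 rose and 7 fell.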
